A study of Mus musculus with 8 samples.

Results

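A set of 9 genes of acetylcholine signalling were followed in RNA-seq libraries of the mouse nucleus accumbens. They were picked by symbol and known role, with no threshold on a measured value: Chat, Slc5a7, Slc18a3, Lhx8 and Ache, which serve acetylcholine synthesis, transport, breakdown and the identity of the neurons that make it, and the muscarinic receptor genes Chrm1, Chrm2, Chrm3 and Chrm4. The choice was made with earlier results of these data known. These 9 genes were each found once among the 22337 genes of the deposited table. The libraries came from male C57BL/6 mice that received morphine (4 libraries) or saline (4 libraries). Morphine is an opioid agonist, and the series asks how chronic exposure to it alters the transcriptome of this region. No transgene or mutation is named for either group. The age of the mice, the dose, the schedule and whether each library came from 1 animal were not stated in the labels, so p-values measure only how these libraries vary, and that variation may be technical.

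Acetylcholine in the striatum, of which the nucleus accumbens is the ventral part, comes mainly from cholinergic interneurons, which are few but have very wide axonal fields. In these cells the product of Slc5a7 takes up choline, the product of Chat joins it to an acetyl group, and the product of Slc18a3 loads acetylcholine into vesicles. Lhx8 is a LIM homeodomain transcription factor needed for forebrain cholinergic neurons to form. Ache encodes the esterase that ends the signal. Among the receptors, M1 and M3 couple to Gq and raise phospholipase C activity, whereas M2 and M4 couple to Gi/o and lower cyclic AMP. In the striatum M1 is found on both classes of projection neuron, M4 is enriched in the class that carries the D1 dopamine receptor, and M2 is an autoreceptor of cholinergic neurons.

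The upstream sequences of the 4 genes that mark cholinergic neurons are given because these genes had the same arrangement of libraries. Chat (ENSMUSG00000021919) lies on chromosome 14 at 32408203 to 32465989, minus strand (GRCm38), and Slc18a3 (ENSMUSG00000100241) lies inside it at 32462438 to 32464850 on the same strand. Slc18a3 is a single exon that shares 0 bases with the exons of Chat, so it is placed in a Chat intron, and the RefSeq start of Chat is 1059 bases upstream of that of Slc18a3. Slc5a7 (ENSMUSG00000023945) lies on chromosome 17 at 54273590 to 54299034, minus strand, and Lhx8 (ENSMUSG00000096225) on chromosome 3 at 154306294 to 154330659, minus strand. The sequences are from RefSeq (GRCm38.p6), read 5′ to 3′ on the gene's strand, and end where the first annotated exon of that strand begins. They cover chr14:32465990-32466159 for Chat, chr14:32464851-32465100 for Slc18a3, chr17:54299035-54299284 for Slc5a7 and chr3:154330660-154330810 for Lhx8. Capitals mark matches on either strand to any of 6 motifs: TAATTA (homeodomain core), TGACGTCA (cAMP response element), CCAAT (bound by NF-Y), CACGTG (E-box), TATAAA (core promoter element) and TTCAGCACC (left part of the REST element).
Chat: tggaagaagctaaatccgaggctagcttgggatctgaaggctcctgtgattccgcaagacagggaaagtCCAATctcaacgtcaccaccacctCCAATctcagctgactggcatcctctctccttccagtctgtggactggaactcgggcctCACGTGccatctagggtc
Slc18a3: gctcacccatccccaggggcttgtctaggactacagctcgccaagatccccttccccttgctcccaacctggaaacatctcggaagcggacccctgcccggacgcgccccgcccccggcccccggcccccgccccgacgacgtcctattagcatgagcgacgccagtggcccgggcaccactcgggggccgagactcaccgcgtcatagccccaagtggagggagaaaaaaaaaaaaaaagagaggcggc
Slc5a7: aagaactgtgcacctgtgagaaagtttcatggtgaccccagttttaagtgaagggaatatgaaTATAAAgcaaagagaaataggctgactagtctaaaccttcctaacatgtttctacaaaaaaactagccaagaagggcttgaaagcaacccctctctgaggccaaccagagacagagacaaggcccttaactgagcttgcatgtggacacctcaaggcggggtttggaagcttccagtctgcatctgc
Lhx8: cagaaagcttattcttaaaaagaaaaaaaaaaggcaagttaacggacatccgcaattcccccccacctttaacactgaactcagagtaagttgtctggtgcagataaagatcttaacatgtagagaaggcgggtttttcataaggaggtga

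No motif of the 6 was shared by these stretches. The Chat stretch held 2 matches to CCAAT and 1 to CACGTG, which occur in 37.4% and 7.15% of the 32851 RefSeq promoter windows of 300 bases. The Slc5a7 stretch held 1 match to TATAAA, which occurs in 13.6% of the windows. That match begins at 54299221, whereas the RefSeq start of the gene is at 54299034. The windows are longer than the stretches shown. The Slc18a3 and Lhx8 stretches held 0 matches, and they differed in base composition, with 66.0% and 39.7% G or C.

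Values are FPKM, fragment numbers scaled to transcript length and to the size of the library. Levels are compared between genes on that scale, which depends on the annotation used, and that was not stated. The 8 library sums ran from 480003.6 to 540104.1. In genes with 1 annotated transcript, FPKM times length fell on whole multiples of a step in each library (74.1 to 81.4% of 193 to 463 low values within 0.1 of a whole number, where evenly spread values give 20%). The steps correspond to about 12300000 to 19300000 fragments per library. Saline replicate 3 stood apart. The FPKM of 22 markers of striatal projection neurons summed to 6170 in it, from 1300 to 1550 in saline replicates 1, 2 and 4 and from 412 to 565 with morphine, with no marker at 0 in any library. The cortical glutamatergic markers summed to 291, 1160 to 1460 and 1510 to 2160 in the same order. Much of that sum was Cck, with 111.82, 650.34 to 932.23 and 887.02 to 1475.81 FPKM in that order. Of 13 cortical markers tested with limma, 1 passed as higher with morphine and 0 as lower, and 2 had a negative change. The labelled tissue is striatal, and markers of cortical neurons such as Slc17a7 were present in all 8 libraries. Results are therefore given with and without saline replicate 3.

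The 4 genes of acetylcholine-producing neurons were lower in every morphine library than in every saline library, as were 5.19% of the 19607 genes with a value above 0. Chat passed the test; Slc18a3 and Slc5a7 missed it, and Lhx8 was below the filter on low values. Chat, choline acetyltransferase, had 1.65, 2.21, 8.56 and 1.91 FPKM in saline replicates 1 to 4 and 0.38, 0.34, 0.2 and 0.1 in morphine replicates 1 to 4. The groups did not overlap, and saline replicate 3 was 4.48 times the median of the other saline libraries. Saline averaged 3.58 ± 3.33 FPKM and morphine 0.255 ± 0.129 (SD, n = 4 each). On the log2(FPKM + 1) scale Chat fell by 1.65 (SE 0.35; limma, Benjamini-Hochberg adjusted p = 0.0449). That scale understates the change of low genes, and the ratio of the mean FPKM was 14.0 (7.54 without saline replicate 3).

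Slc18a3, the vesicular acetylcholine transporter, had 1.91, 1.35, 7.22 and 1.28 FPKM in the saline libraries and 0.32, 0.28, 0.06 and 0.23 in the morphine libraries. All morphine values again lay below all saline values. This gene has 1 annotated transcript, so its values could be turned back into fragments with the step of each library: 70, 47, 255 and 38 in saline and 15, 9, 2 and 8 in morphine. The morphine values thus rest on 2 to 15 fragments. Saline averaged 2.94 ± 2.87 FPKM and morphine 0.223 ± 0.114 (SD, n = 4 each), with a log2 change of −1.47 ± 0.35 (SE) that did not pass (limma adjusted p = 0.0598).

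**Figure D1:**
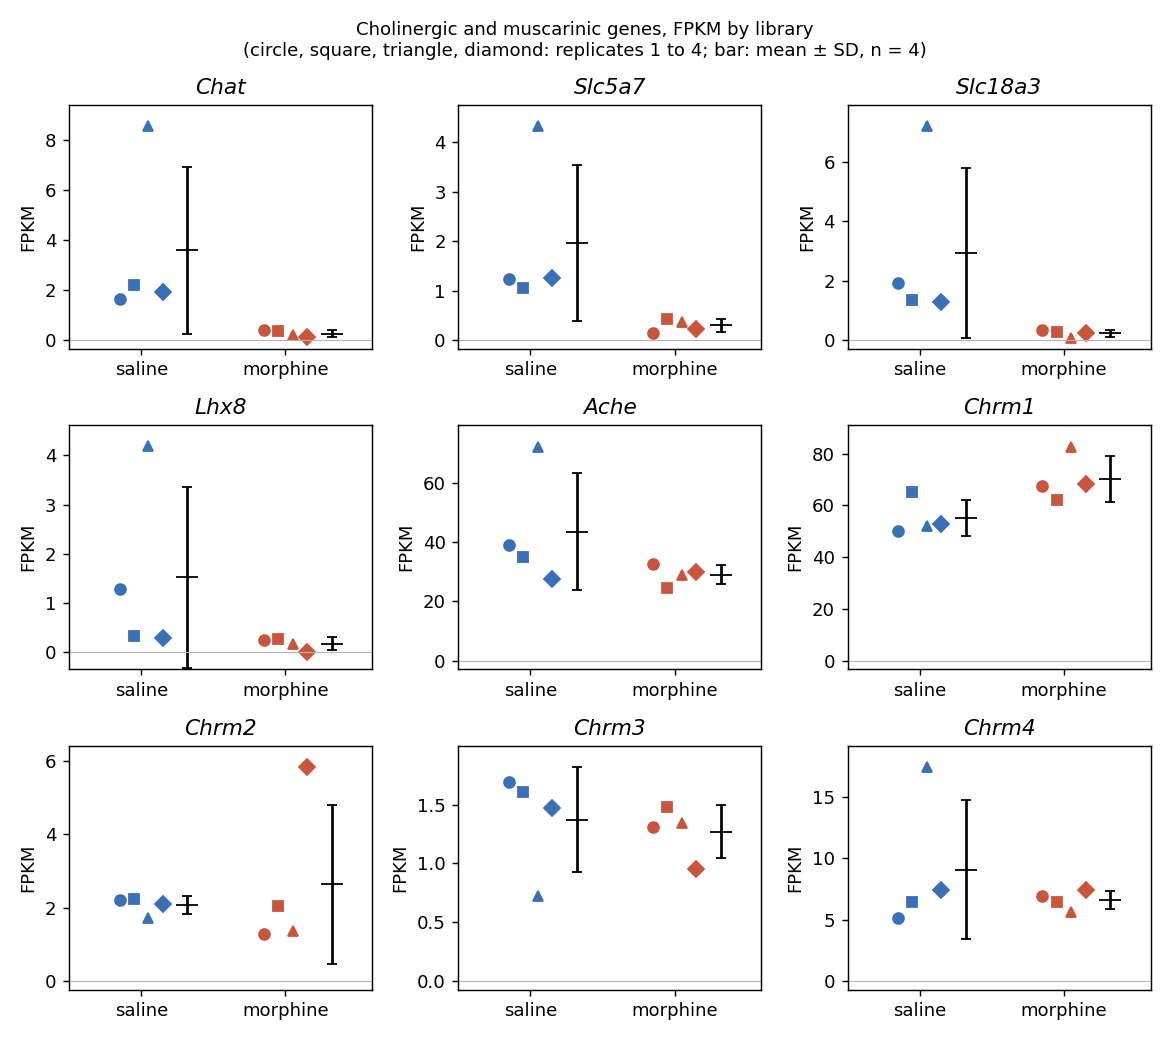
FPKM of each of the 9 genes in every library, saline in blue and morphine in red, with symbols for replicates 1 to 4 and black bars for the mean ± SD (n = 4). In Chat, Slc5a7, Slc18a3 and Lhx8 every morphine point is below every saline point, and the saline replicate 3 triangle is the highest; in Chrm1 to Chrm4 and Ache the groups overlap.

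Slc5a7, the high-affinity choline transporter, had 1.23, 1.05, 4.33 and 1.25 FPKM in saline and 0.15, 0.43, 0.37 and 0.22 in morphine. The lowest saline value was 1.05 and the highest morphine value 0.43. Saline averaged 1.97 ± 1.58 FPKM and morphine 0.292 ± 0.13 (SD, n = 4 each), with a log2 change of −1.08 ± 0.28 (SE; limma adjusted p = 0.0707). Lhx8 had 1.28, 0.34, 4.19 and 0.29 FPKM in saline and 0.26, 0.28, 0.16 and 0 in morphine. The groups were separated by a narrow margin, since the lowest saline value (0.29) and the highest morphine value (0.28) nearly met. Lhx8 reached 1 FPKM in only 2 libraries and was not among the genes tested with limma. An exact permutation test over the 70 assignments of the libraries gave p = 0.0286 (two-sided), the smallest that 4 against 4 libraries allow (log2 difference −0.86, and −0.43 without saline replicate 3). Any 4 against 4 values that do not overlap give that p, so it adds nothing to the separation. Leaving out any single morphine library gave p = 0.143 to 0.171 in the same exact permutation test.

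These results are read against the whole table. Of 12536 genes tested, 2.52% passed in either direction, 1.48% as lower and 1.04% as higher with morphine, and 1 of the 8 tested genes of this set (Chat, lower) passed. All 4 morphine values lay below all 4 saline values in 6.1% of the tested genes and above them in 6.56%. Chat, Slc5a7 and Slc18a3 reached 1 FPKM in the saline libraries only and so passed the filter through the group where they are high. Of the 44 tested genes in that position, 56.8% passed as lower and 100% had groups that did not overlap, which the filter itself fixes. The calls of these 3 genes also moved with single libraries. Without saline replicate 3 the 3 genes passed (Chat −1.22 ± 0.16, adjusted p = 0.00726; Slc18a3 −1.04 ± 0.16, adjusted p = 0.0142; Slc5a7 −0.76 ± 0.15, adjusted p = 0.0353; log2, SE, limma). Chat did not pass without saline replicate 1 or 2, or without any single morphine library (log2 change −1.84 to −1.59, adjusted p = 0.0595 to 0.135).

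**Figure D2:**
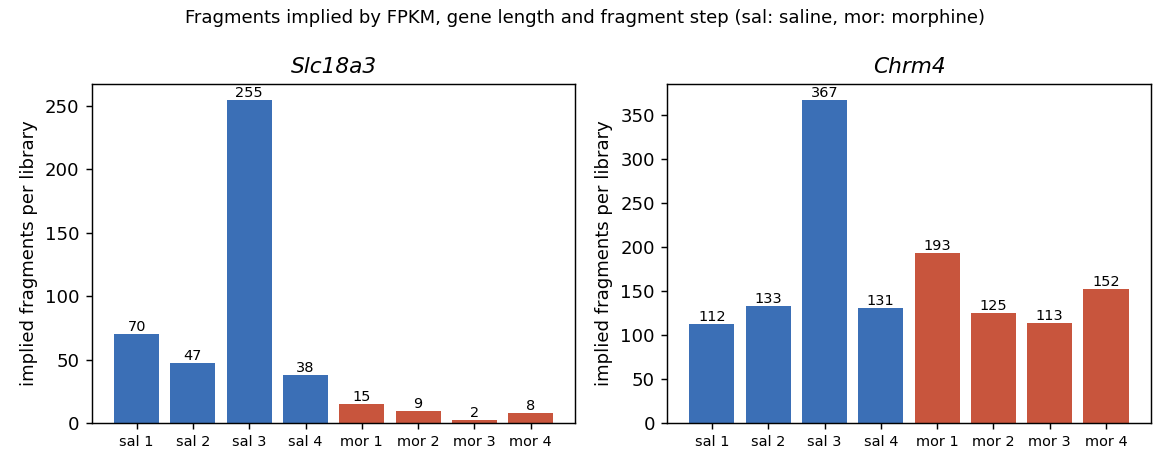
Fragments implied by FPKM, gene length and the step of each library, for the members with a single annotated transcript, as whole numbers above the bars (saline blue, morphine red). Slc18a3 has 2 to 15 fragments in the morphine libraries and 38 to 255 in the saline libraries, whereas Chrm4 has 113 to 193 and 112 to 367.

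Ache (ENSMUSG00000023328, chromosome 5, 137287519 to 137294466, plus strand) did not have this separation. It had 38.98, 35.05, 72.34 and 27.71 FPKM in saline and 32.6, 24.7, 28.82 and 29.97 in morphine. The groups overlapped, with saline replicate 3 as the highest library and saline replicate 4 below 3 of the morphine libraries. Saline averaged 43.5 ± 19.8 FPKM and morphine 29.0 ± 3.29 (SD, n = 4 each). The log2 change was −0.48 ± 0.24 (SE, limma adjusted p = 0.296), and −0.21 ± 0.14 without saline replicate 3. The difference between Chat and Ache within a library, on the log2(FPKM + 1) scale, was −3.92, −3.49, −2.94 and −3.3 in saline and −4.61, −4.26, −4.64 and −4.82 in morphine. It was lower in all 4 morphine libraries (−1.17, exact permutation p = 0.0286, 0.0429 after Benjamini-Hochberg adjustment over the 3 within-library differences tested here, which were chosen after the values were seen). The p was 0.0571 (exact permutation) when morphine replicate 1, 3 or 4 was left out. Since Chat reached 1 FPKM in saline only and the pair was picked for its separation, this difference is a description. Ache is also expressed by neurons that do not make acetylcholine. In bulk tissue, fewer cells of a type and less RNA per cell cannot be told apart.

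The 4 muscarinic receptor genes overlapped between the groups and none passed. Chrm1 (ENSMUSG00000032773, chromosome 19, 8663789 to 8683587, plus strand), the gene of the Gq-coupled M1 receptor, was the most abundant of the set. It had 50.19, 65.33, 52.17 and 52.88 FPKM in saline and 67.49, 62.25, 82.74 and 68.12 in morphine. In 3 morphine libraries it was above all saline libraries, and morphine replicate 2 was below saline replicate 2. Saline averaged 55.1 ± 6.89 FPKM and morphine 70.2 ± 8.8 (SD, n = 4 each). The log2 change was 0.34 ± 0.12 (SE, limma adjusted p = 0.157). Saline replicate 3, which stood apart in the other genes, was 0.987 times the median of the other saline libraries in Chrm1.

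Chrm4 (ENSMUSG00000040495, chromosome 2, 91927249 to 91928688, plus strand) encodes the Gi/o-coupled M4 receptor. Its GENCODE model is a single exon of 1440 bases and the RefSeq start lies 5060 bases upstream of it. It had 5.11, 6.41, 17.41 and 7.39 FPKM in saline and 6.93, 6.43, 5.63 and 7.38 in morphine, or 112, 133, 367 and 131 implied fragments in saline and 193, 125, 113 and 152 in morphine. All morphine values lay within the range of saline replicates 1, 2 and 4. The log2 change was −0.27 ± 0.29 (SE, limma adjusted p = 0.646), and 0.06 ± 0.15 without saline replicate 3.

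Chrm4 was set beside Drd1, the D1 dopamine receptor gene of the projection neurons in which M4 is enriched. Drd1 had 21.31, 19.92, 87.2 and 23.4 FPKM in saline and 7.16, 3.05, 3.07 and 2.16 in morphine. The within-library difference Chrm4 minus Drd1 was −1.87, −1.5, −2.26 and −1.54 in saline and −0.04, 0.88, 0.7 and 1.41 in morphine (log2). It was higher in all 4 morphine libraries (2.53, exact permutation p = 0.0286, adjusted 0.0429), and it was 2.37 without saline replicate 3. Drd1 by itself did not overlap between the groups, and the pair was chosen after the values were seen. This difference is therefore a description too. Saline replicate 3 was 4.09 times the median of the other saline libraries in Drd1 and 2.72 times in Chrm4. The corresponding difference between Chrm1 and Chrm4 overlapped between the groups (0.62, exact permutation p = 0.229, adjusted 0.229).

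Chrm2 (ENSMUSG00000045613, chromosome 6, 36388084 to 36528414, plus strand), the gene of the M2 autoreceptor, had 2.22, 2.23, 1.71 and 2.1 FPKM in saline and 1.29, 2.05, 1.37 and 5.83 in morphine. Morphine replicate 4 was the highest of the 8 libraries, and the other 3 morphine libraries were below saline replicates 1, 2 and 4. The log2 change was 0.09 ± 0.30 (SE, limma adjusted p = 0.898), and without morphine replicate 4 it was −0.26 ± 0.16 (adjusted p = 0.45). Chrm3 (ENSMUSG00000046159, chromosome 13, 9875486 to 10360847, minus strand), the gene of the M3 receptor, had 1.69, 1.61, 0.72 and 1.47 FPKM in saline and 1.31, 1.48, 1.34 and 0.95 in morphine. Saline replicate 3 was the lowest library, at 0.447 times the median of the other saline libraries, the opposite of its place in Chat and Chrm4. The log2 change was −0.05 ± 0.17 (SE, limma adjusted p = 0.91).

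**Figure D3:**
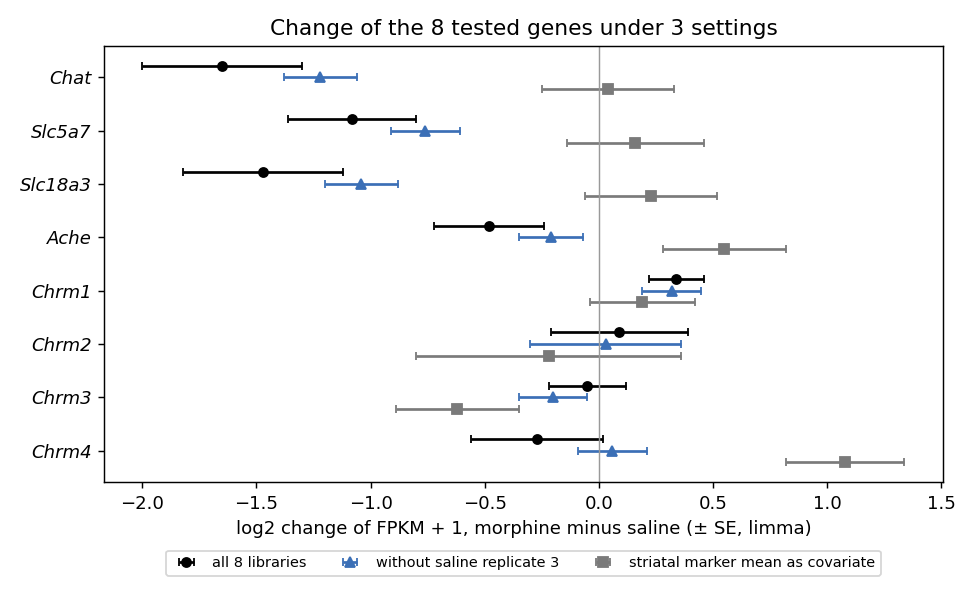
Log2 change of FPKM + 1, morphine minus saline, with the SE from limma, for the 8 tested genes with all libraries (black), without saline replicate 3 (blue) and with the mean of the striatal markers as a covariate (grey). Chat is at −1.65, −1.22 and 0.04, and Chrm4 at −0.27, 0.06 and 1.08.

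The order of the levels differed between the groups in the lower part. In saline replicates 1, 2 and 4 it ran from Chrm1 (mean 56.1 FPKM) through Ache (33.9) and Chrm4 (6.3), which were separated from each other and from the rest, to Chrm2 (2.18), Chat (1.92), Chrm3 (1.59), Slc18a3 (1.51), Slc5a7 (1.18) and Lhx8 (0.637). Within the lower 6, only Slc18a3 and Slc5a7 were neighbours whose values did not overlap. With saline replicate 3 included, Ache and Chrm4 were the only neighbours that stayed apart. In morphine, Chrm1 (70.2), Ache (29.0) and Chrm4 (6.59) kept the upper places, Chrm2 (2.63) and Chrm3 (1.27) followed, and Slc5a7 (0.292), Chat (0.255), Slc18a3 (0.223) and Lhx8 (0.175) came last. The morphine values of these 4 overlapped one another and lay below every morphine value of Chrm3.

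The low level of the cholinergic genes in morphine moved with the markers of striatal projection neurons. The mean log2(FPKM + 1) of those 22 markers was 4.88, 4.77, 7.05 and 5.1 in saline and 3.54, 3.31, 3.07 and 3.19 in morphine. Of the 22, 13 passed as lower and 0 as higher, with a median log2 change of −2.29 (0.01 over all genes tested). Saline replicate 3 was 4.52 times the median of the other saline libraries in Ppp1r1b, which encodes the dopamine-regulated phosphatase inhibitor of these neurons, and 1.61 (Bcl11b) to 13.9 times (Gpr6) over the markers. Other measures also differed between the groups. Of 6 tested endothelial markers, 3 passed as lower, and the list summed to 155 to 179 FPKM in saline and 112 to 124 in morphine. Of 7 astrocyte markers, 1 passed as lower and 7 had a negative change. Mitochondrially encoded genes took 9.09 to 12.6% of the FPKM in saline and 6.09 to 7.94% in morphine, with no overlap. The part of these shifts in the result was not tested. With the marker mean as a covariate, the log2 change of Chat was 0.04 ± 0.29 (limma adjusted p = 0.981), that of Slc18a3 0.23 ± 0.29 and that of Slc5a7 0.16 ± 0.30 (SE), and limma called 3 genes in all. The marker mean itself did not overlap between the groups, so that treatment and striatal marker level cannot be told apart in these libraries. Under the same covariate Chrm4 had a log2 change of 1.08 ± 0.26 and Ache 0.55 ± 0.27 (SE; adjusted p = 0.197 and 0.532).

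**Figure D4:**
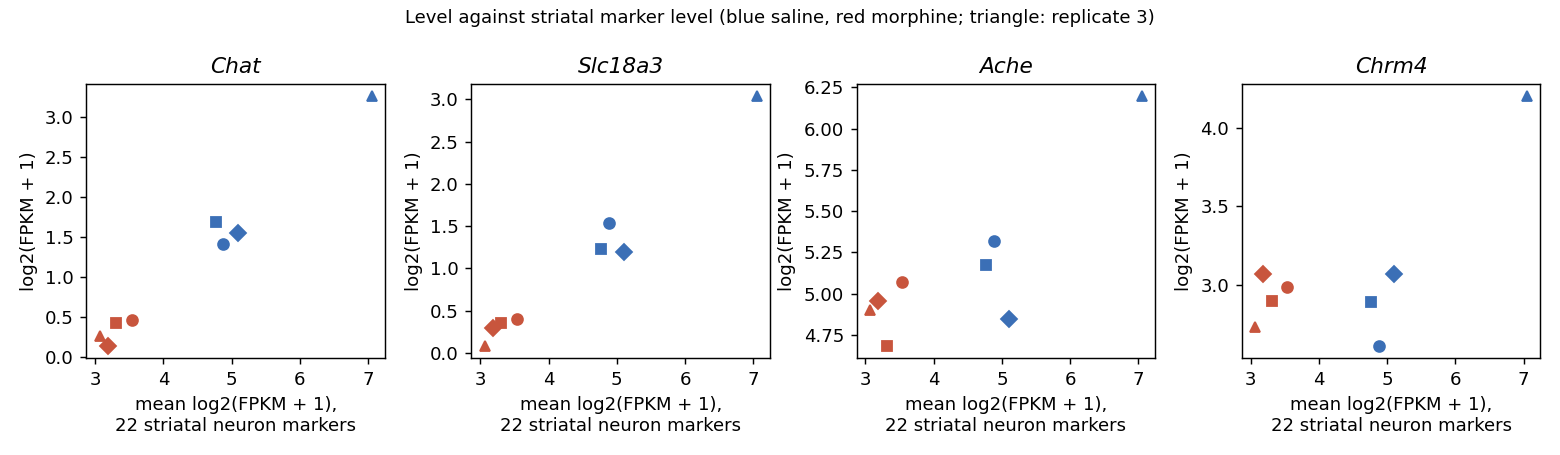
Level of Chat, Slc18a3, Ache and Chrm4 (log2(FPKM + 1)) against the mean level of the 22 striatal projection neuron markers in each of the 8 libraries, saline blue and morphine red. In Chat and Slc18a3 the morphine libraries are lowest, saline replicates 1, 2 and 4 lie between and saline replicate 3 is highest on both axes, whereas in Chrm4 the morphine libraries are level with saline replicates 1, 2 and 4.

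A list of markers of other interneurons, such as Pvalb and Sst, also held the GABA synthesis genes Gad1 and Gad2, which projection neurons express too, and none passed in either direction (0 of 12 with limma, 5 at an unadjusted p under 0.05; median log2 change 0.58). Their FPKM summed to 727 in saline replicate 3, 902 to 1310 in saline replicates 1, 2 and 4 and 1190 to 1700 in morphine. In 4 of these genes every morphine value lay above every saline value, with log2 changes of 1.43 (Calb2), 0.98 (Htr3a), 0.92 (Tac2) and 0.56 (Nos1). Of the 12, 4 went against the list's median with a negative change. Gad2 had a log2 change of −1.13 ± 0.32 (SE, limma adjusted p = 0.087) and groups that did not overlap. Pvalb (−0.29), Lhx6 (−0.2) and Gad1 (−0.11) had groups that overlapped. Other markers of cholinergic neurons were examined as a list of 8 genes, of which 4 were tested, 1 passed as lower and 0 as higher (median log2 change −0.48). Isl1, a LIM homeodomain factor of striatal cholinergic and D1-class neurons, had 4.47, 4.47, 10.97 and 2.7 FPKM in saline and 0.96, 0.06, 0.06 and 0.12 in morphine. It fell by 2.27 on the log2 scale (SE 0.34; limma adjusted p = 0.0207), and missed the threshold when saline replicate 2 or either of morphine replicates 3 and 4 was left out (adjusted p = 0.0631 to 0.0767). Like Chat, it passed the filter through saline only, which fixes that its groups do not overlap. Ngfr, the p75 neurotrophin receptor gene of basal forebrain cholinergic neurons, had a log2 change of −0.38 ± 0.16 (SE, limma adjusted p = 0.227). Gbx2, Nkx2-1 and Slc17a8 were below the filter and reached at most 1.09 FPKM in any library. Markers of septum and hypothalamus, neighbouring tissues of which the septum holds cholinergic neurons of its own, summed to 72.5 FPKM in saline replicate 3, 29.3 to 40.6 in saline replicates 1, 2 and 4 and 13.5 to 24.8 in morphine, with 4 of the 10 markers at 0 in some library. Of the 5 tested, 2 passed as lower, Nts and Ecel1. Nts had 22.58, 14.57, 20.8 and 13.21 FPKM in saline replicates 1 to 4, and Ecel1 had 8.73, 6.45, 39.75 and 8.59. Saline replicate 3 was thus 1.43 times the median of the other saline libraries in Nts and 4.63 times in Ecel1. The other tested markers did not pass and differed in direction. Their log2 changes were 0.84 ± 0.35 for Slc17a6, 0.26 ± 0.50 for Trh and −0.42 ± 0.20 for Zic1 (SE, limma). The part of these markers in the result was not tested.

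Among 10 further genes of acetylcholine handling, 7 were tested, 1 passed as lower and 0 as higher (median log2 change −0.06). Slc10a4, which encodes a vesicle protein of cholinergic and monoamine neurons, had 5.12, 2.87, 21.6 and 4.48 FPKM in saline and 0.82, 1.78, 0.38 and 0.21 in morphine. It fell by 2.11 on the log2 scale (SE 0.48; limma adjusted p = 0.0485), with the same highest library as Chat. It missed the threshold without any single library other than saline replicate 3 (adjusted p = 0.0526 to 0.142). Bche, butyrylcholinesterase, had 1.87, 1.13, 1.79 and 1.31 FPKM in saline and 0.85, 0.37, 0.31 and 1.17 in morphine and did not pass (log2 change −0.61 ± 0.19 SE, limma adjusted p = 0.117). Prima1, the membrane anchor of acetylcholinesterase in brain, was named after its values were seen; it was below the filter, with 1.42, 1.37, 4.87 and 0.68 FPKM in saline and 0.52, 0.49, 0.13 and 0.23 in morphine. Its groups did not overlap, unlike those of Ache. Chrm5, the remaining muscarinic receptor gene, was also below the filter, at 0.08 to 0.81 FPKM over the 8 libraries.

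Of 16 nicotinic receptor subunit genes, which encode the acetylcholine-gated ion channels, 3 were tested and 0 passed with limma (1 at an unadjusted p under 0.05, median log2 change 0.54). Chrna4 had 8.69, 9.69, 5.36 and 11.8 FPKM in saline and 14.31, 17.01, 18.1 and 11.52 in morphine (log2 change 0.74 ± 0.22 SE, limma adjusted p = 0.0932). The groups overlapped through morphine replicate 4 and saline replicate 4, and saline replicate 3 was the lowest library. Chrna7 had a log2 change of 0.54 ± 0.29 (SE, limma adjusted p = 0.324). Of 7 partners of nicotinic receptors, 0 of the 7 tested passed with limma (2 at an unadjusted p under 0.05, median −0.06), with log2 changes of −0.40 ± 0.13 for Lynx1 and 0.47 ± 0.19 for Ly6h (SE; limma adjusted p = 0.126 and 0.194).

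Of 19 genes of muscarinic signal transduction, all tested, 1 passed as higher and 0 as lower (median log2 change 0.12). With limma, 6 had an unadjusted p under 0.05, and 9 of the 19 had a negative change. Every morphine value lay below every saline value in 3 and above in 2. The 3 lower genes, named after their values were seen, were Adcy5 (−1.48), Gng7 (−1.19) and Gnal (−0.94), with limma adjusted p of 0.0841, 0.126 and 0.0874. Prkca, a protein kinase C gene, had a log2 change of 0.63 ± 0.17 (SE, limma adjusted p = 0.0783). The deposited table assigns 119 genes to the KEGG pathway of the cholinergic synapse, including 8 of the 9 genes described here. Of the 96 tested, 2 passed as higher (among them Fos) and 2 as lower (Akt2 and Chat), which is 4.17% against 2.52% of all genes tested.

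The genes whose profile over the 8 libraries was most like each member were found among 12161 other tested genes by the root mean square difference of centred log2(FPKM + 1) values. For Chat they were Sh3rf2 (0.16), Mme (0.17) and Ntn1 (0.18). Slc18a3 ranked 5 for Chat (0.20), and Chat ranked 4 for Slc18a3, after Adcy5 (0.17), Sh3rf2 (0.18) and Cacna2d3 (0.20). For Slc5a7 they were Gnal (0.11), Cacna2d2 (0.11) and Cbr3 (0.13), where Slc18a3 differed by 0.29 and Chat by 0.35. For Ache they were Dgat2 (0.14), Hspb1 (0.14) and Ccm2 (0.15), for Chrm4 Arel1 (0.10), Dgkb (0.12) and Pdxk (0.12), and for Chrm2 Steap2 (0.11), Kcnb2 (0.16) and Igsf3 (0.19). Chrm1 and Chrm3 ranged by less than 1 on the log2 scale and were not matched. These rankings depended on single settings: without saline replicate 3, 0 of the 3 nearest genes were shared for Slc5a7, Slc18a3, Ache and Chrm4, and with a pseudocount of 0.1, 0 of the 3 were shared for Chat, Slc5a7 and Slc18a3.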

How the data were processed

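The authors deposited 1 table of FPKM values with 1 column per library, rounded to 2 decimals, per the file headers. The tools named, per the submitters' processing notes, are StringTie 1.3.1, RSEM, HISAT2, Bowtie2 2.2.8 and fastp 0.18.0, with build mm10. What each of them did, the annotation used and any strand setting were not stated. Per the labels' protocols, cDNA was made from total RNA with an oligo-dT primer and template switching and amplified by PCR, and no molecular identifiers are named. Counts of fragments implied by FPKM therefore include PCR copies. FPKM is relative to the whole library, so a transcript class with a larger share lowers all other values.

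Of the 22337 identifiers, 22232 matched GENCODE M21 (GRCm38), which gave symbols, lengths and positions (1-based). Promoter windows came from RefSeq (GRCm38.p6), where 8 of the 9 members matched. Genes with at least 1 FPKM in at least 4 libraries were tested on log2(FPKM + 1) with limma 3.58.1 in R 4.3.3 (mean-variance trend, two-sided, Benjamini-Hochberg over all genes tested, threshold 0.05), morphine against saline over all 8 libraries. The test was tested on simulated data. The fragment step was sought in genes with 1 transcript, under 4000 bases and under 3 FPKM, and recovered known depths in simulated data. Between 0.12 and 0.27% of values were identical between any pair of libraries. Alternatives changed the pseudocount, filter, scaling, library weights, covariate, block and libraries.

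Members and gene lists were chosen with earlier results of these data known. Genes named beside the members are, of each acetylcholine list, those that passed, or the 2 with the smallest p where fewer than 2 passed, then Ppp1r1b, Drd1, Drd2 and Slc17a7, and the 3 most alike genes. Some genes that this rule names are not reported here.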

Additional observations from a re-analysis of the deposited data

Results flagged for a closer look

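In 18 groups of 4 libraries (9 genes, saline and morphine), the library at either end was compared with the others by Dixon's test on the log2(FPKM + 1) scale, which flags about 1 group in 20 by chance. Saline replicate 3 was far above the other saline libraries in Chat (8.56 FPKM, where the others had 1.65 to 2.21) and in Slc5a7 (4.33 FPKM, where the others had 1.05 to 1.25). The same library had the highest sum of striatal projection neuron markers and the lowest sum of cortical markers.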

How the results depend on the processing

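With all 8 libraries 316 genes and 1 member passed. The number of genes was 17 with no filter on low values, 706 with array weights, 3 with the striatal covariate and 5 with the replicate block, and leaving out 1 library gave 0 to 450 (0 when saline replicate 2 or either of morphine replicates 3 and 4 was left out, with 1953 to 2136 at an unadjusted p under 0.05 in limma). The number of members was 3 with a pseudocount of 0.1 or array weights, 2 with mitochondrially encoded genes removed and 0 with no filter, a filter at 5 FPKM (which removes Chat), quantile normalization, the striatal covariate or the replicate block, and leaving out 1 library gave 0 to 3. The share of higher calls was 41.1%, and 21.4% with mitochondrially encoded genes removed. Chat passed in 6 of 16 alternatives, Slc18a3 in 5 and Slc5a7 in 3; the log2 change of Chat under the replicate block was −1.65 (adjusted p = 0.0772). The labels do not say whether replicate numbers pair the libraries. Same-numbered deviations from the group means correlated at −0.205 to 0.0522, which does not settle whether a pairing exists. Direction reversed with the striatal covariate for Chat (0.04), Slc5a7 (0.16), Slc18a3 (0.23), Ache (0.55), Chrm2 (−0.22), Chrm4 (1.08), Slc10a4 (0.12), Chrna4 (−0.01), Chrna7 (−0.47), Prkca (−0.10), Drd2 (0.55) and Slc17a7 (−1.24), for Chrm3 with quantile normalization (0.08) and without saline replicate 1 (0.02), saline replicate 2 (0.01) or morphine replicate 4 (0.02), for Chrm2 without morphine replicate 4 (−0.26) and for Chrm4 without saline replicate 3 (0.06). Drd2 is itself among the striatal markers whose mean is that covariate, so its reversal is not separate information. Leaving out 1 library gave −0.26 to 0.26 for Chrm2, −0.20 to 0.02 for Chrm3 and −0.47 to 0.06 for Chrm4. The cause was not tested. A filter on the mean over all libraries, added after seeing the data, left 1 member passing (Chat, adjusted p = 0.0469). Slc10a4 missed the threshold under that filter (adjusted p = 0.0514). Few fragments limit Slc18a3 in morphine, where it rests on 2 to 15. Fragments could not be recovered for Chat, Slc5a7 and Lhx8, which have several annotated transcripts.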
